A study of Mus musculus with 10 samples.

Results

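The genes described here encode elastin, its fibrillin scaffold and the fibulin, microfibril-associated and EMILIN proteins that join them into elastic fibres. They were 10 genes of the 14854 measured, chosen by symbol: Eln, Fbn1, Fbln1, Fbln2, Fbln5, Mfap2, Mfap4, Mfap5, Emilin1 and Emilin2. All 10 were found by their Ensembl identifier in every table, and all 10 passed the filter on low values. The measurements are RNA-seq libraries, 2 per lineage, of 5 lineages of adult mouse lung mesenchyme that had been isolated by FACS. Wnt2 cells came from Wnt2CreERT2:R26REFYP mice, in which a tamoxifen-inducible recombinase under Wnt2 switches on a fluorescent reporter in cells expressing Wnt2 and in their descendants. The other 4 groups came from Axin2CreERT2:tdT:PdgfraEGFP mice, in which the same kind of recombinase under Axin2 switches on tdT and EGFP reports Pdgfra. They were cells with both labels (Axin2:Pdgfra), with tdT alone (Axin2), with EGFP alone (Pdgfra) and with none (Negative). Mouse line and lineage cannot be told apart for Wnt2 cells. A Cre label records past as well as present expression of its driver, and the Negative group is what remained after the labelled cells were removed. Pdgfra library 1 is titled by EGFP alone. Nothing in the labels tells if libraries of 1 lineage are from different animals, and p-values therefore reflect the spread of these libraries alone, which may be technical.

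Elastic fibres give the lung its recoil. Soluble elastin is laid down on a scaffold of fibrillin microfibrils, is guided there by fibulins and EMILINs, and is then cross-linked by lysyl oxidases. In the lung they lie in alveolar septal tips, in the walls of vessels and airways, and in the pleura, and they are made mainly by fibroblasts, myofibroblasts and smooth muscle cells.

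The deposited values are single log2 numbers per gene and library, whose distributions were made near-identical between libraries, which leaves the depth unknown and gives no counting error. The share of genes listed at the lowest value of a library ranged from 2.1% to 18.4%. Whether gene length entered the values is not stated in the labels, so levels are compared between lineages for 1 gene and not between genes. Fibroblast markers were present in all lineages: the summed level of 13 fibroblast markers was between 18.29 and 18.58 in Wnt2, 18.55 and 18.71 in Axin2:Pdgfra, 17.37 and 17.43 in Axin2, 17.99 and 18.55 in Pdgfra and 16.43 and 16.73 in Negative libraries (log2 of the sum), with no marker at the lowest value in both libraries of a group. Such a sum follows its most abundant genes, and single markers were low in some groups. The list includes Pdgfra, whose EGFP reporter was used to sort all groups but Wnt2. Lum was at 3.85 and 2.67 in Negative and Pi16 at 5.55 and 2.06 in Wnt2 libraries. Of the 13 markers 4 were lower in Wnt2 than in Axin2:Pdgfra cells (Dcn, Col14a1, Pi16 and Lum) and 0 higher (limma, adjusted p under 0.05). The 17 pericyte and smooth muscle markers summed to 13.6 and 13.77 in Wnt2, 14.92 and 15.67 in Axin2:Pdgfra, 18.55 and 18.82 in Axin2, 14.96 and 15.2 in Pdgfra and 16.34 and 17.45 in Negative libraries. The 13 epithelial markers, which a mesenchymal sort should leave behind, summed to 14.65 to 17.24 in the 8 labelled libraries, against 17.97 and 18.07 in Negative ones, and 5 erythroid markers to 6.95 to 11.31, against 16.02 and 16.5. Of the 3 genes that drive the labels, Pdgfra rose by 1.96 ± 0.26 (log2 ± SE; limma, adjusted p = 0.000407) with its label, but its mean was highest in Wnt2 cells, at 16.15, against 15.06 in Axin2:Pdgfra and 14.78 in Pdgfra cells. Wnt2 was not highest in Wnt2 cells, where it averaged 9.86, against 10.36 in Axin2:Pdgfra, 10.06 in Axin2, 9 in Pdgfra and 9.42 in Negative cells. Axin2 averaged 11.33 in Wnt2, 10.79 in Axin2:Pdgfra, 11.02 in Axin2, 10.73 in Pdgfra and 10.37 in Negative cells. Neither Wnt2 nor Axin2 differed among lineages by the F-test (limma, adjusted p = 0.733 and 0.841), so their mRNA does not check those labels. In bulk samples such as these, fewer cells of a type and less RNA per cell cannot be told apart.

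**Figure D1:**
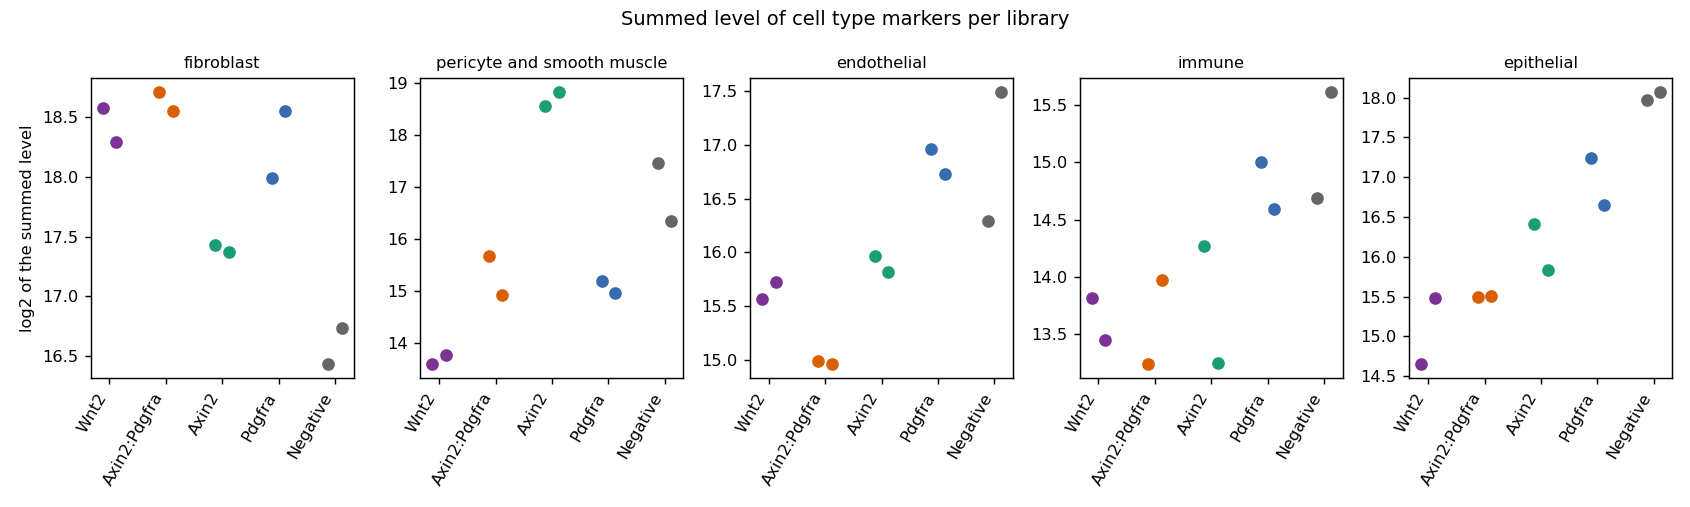
Summed level of 5 lists of cell type markers (log2 of the sum, y axis) in each library, by lineage (x axis); each point is 1 library. Fibroblast markers are lowest in the 2 Negative libraries (16.43 and 16.73), pericyte and smooth muscle markers highest in the 2 Axin2 libraries (18.55 and 18.82) and epithelial markers highest in the 2 Negative libraries (17.97 and 18.07).

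The 10 genes did not follow a single pattern across the lineages. Fibulin 1, Mfap5, both EMILINs and fibrillin 1 were highest in Axin2:Pdgfra cells, elastin, Mfap4 and fibulin 5 in Wnt2 cells, fibulin 2 in Pdgfra cells and Mfap2 in Negative cells, going by group means. Negative cells had the lowest mean for 5 of the 10 (Eln, Fbn1, Fbln1, Mfap4 and Emilin1). Among the 5 lineages Fbn1, Fbln1, Mfap4, Mfap5 and Emilin1 differed (limma F-test, BH-adjusted p = 0.00808, 8.25e-05, 0.00251, 0.00159 and 0.00703), which is 5 of 10 beside 8.2% of all 14177 genes tested. These 5 calls held whichever library was left out. Eln, Emilin2, Fbln2 and Mfap2 did not pass (adjusted p = 0.0676, 0.0684, 0.0979 and 0.099), and neither did Fbln5 (adjusted p = 0.895). Over all 10 pairs of lineages, 23 of 100 combinations of gene and pair passed, beside 2.57% of all such combinations over the 14177 genes, and 7 of these 23 held without any 1 library. The other 16 ended without at least 1 library, with adjusted p between 0.05 and 0.509 in the fits in which they ended. The count of 23 was 13 without Wnt2 library 1, 15 without Wnt2 library 2 and 15 without Axin2 library 1. In the order of group means, only 1 of 40 steps from a group to the next passed, that of Fbn1 from Pdgfra to Negative cells. The other steps did not pass the threshold. In some of them, as in all those of Fbln1, the libraries of the neighbouring groups did not overlap. Shares over all genes were computed neither for the steps nor for such lack of overlap. Neither therefore sets the 10 genes apart. Comparisons with Negative cells also carry the lower fibroblast and higher epithelial and erythroid sums given above, whose part in the results was not tested.

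**Figure D2:**
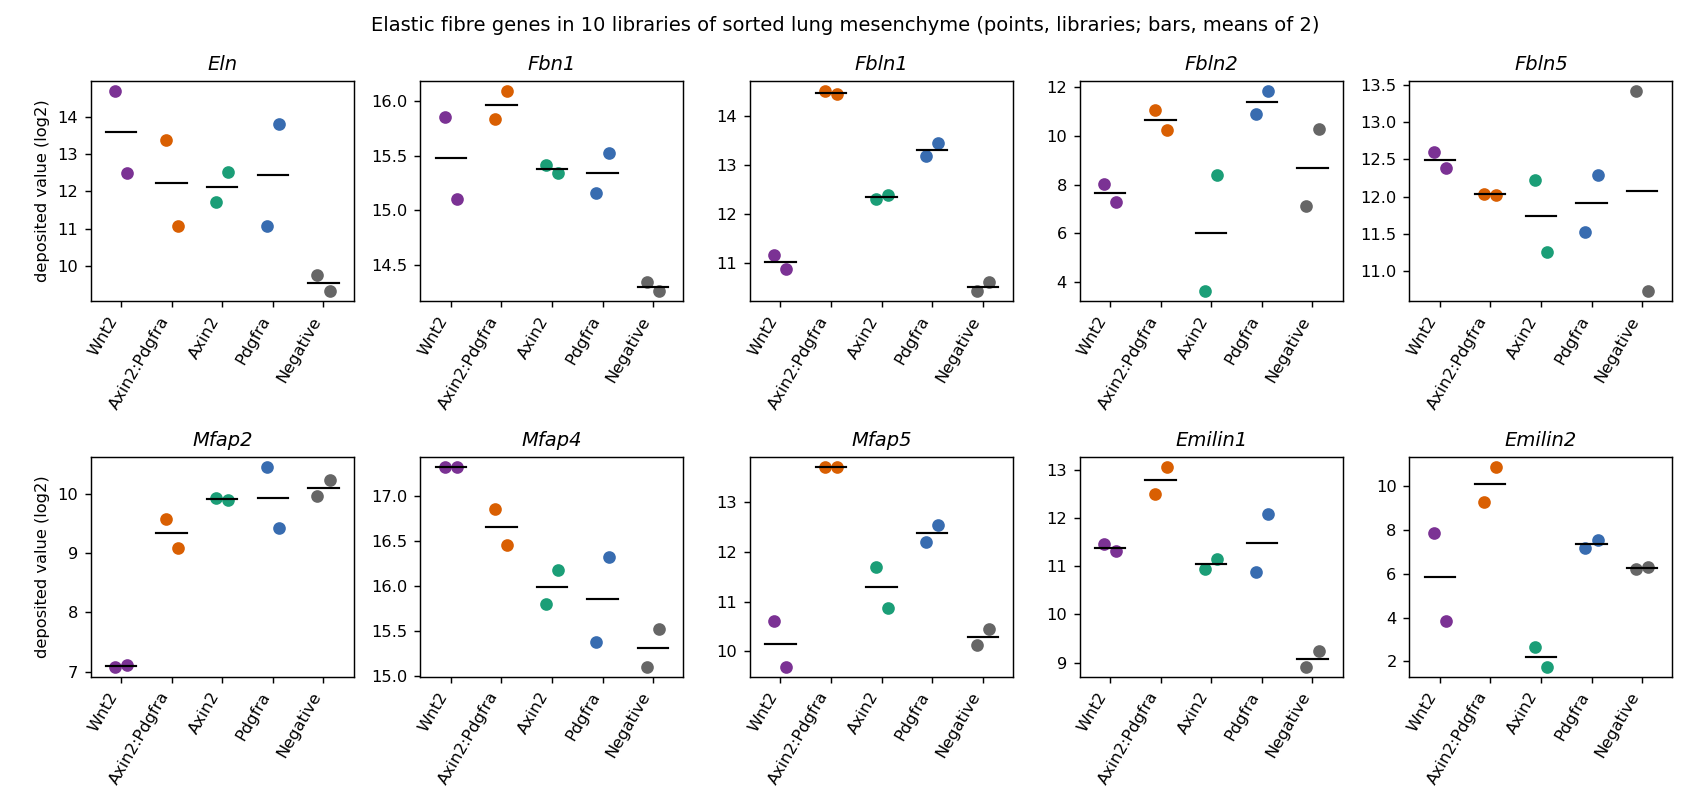
Deposited value (log2, y axis, with its own range in each panel) of the 10 elastic fibre genes by lineage (x axis); points are libraries and bars the means of 2. Fbln1 and Mfap5 are highest in both Axin2:Pdgfra libraries (14.45 and above, and 13.71), Mfap4 is highest and Mfap2 lowest in both Wnt2 libraries (17.32, and 7.11 or less).

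Elastin, the cross-linked polymer at the core of the fibre, was lowest in both Negative libraries. Eln was at 14.7 and 12.49 in Wnt2, 13.38 and 11.08 in Axin2:Pdgfra, 11.73 and 12.52 in Axin2, 11.08 and 13.82 in Pdgfra and 9.75 and 9.32 in Negative libraries 0 and 2. The 4 labelled lineages overlapped one another and none overlapped Negative cells. Eln was higher in Wnt2 than in Negative cells by 4.06 ± 0.89 (log2 ± SE; limma, adjusted p = 0.0156; 16.6-fold). That call ended without Wnt2 library 1 (difference 2.95, adjusted p = 0.238) or Negative library 2 (adjusted p = 0.0865). Against Negative cells the differences of Axin2:Pdgfra (2.69 ± 0.89), Axin2 (2.59 ± 0.89) and Pdgfra cells (2.91 ± 0.89) did not pass (adjusted p = 0.0918, 0.194 and 0.102). The 2 libraries of Wnt2, Axin2:Pdgfra and Pdgfra cells stood far apart (SD 1.56, 1.63 and 1.94), and those of Axin2 and Negative cells did not (0.56 and 0.3).

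Fibrillin 1 forms the backbone of the microfibril. Fbn1 was at 15.85 and 15.1 in Wnt2, 15.83 and 16.09 in Axin2:Pdgfra, 15.41 and 15.34 in Axin2, 15.16 and 15.52 in Pdgfra and 14.34 and 14.26 in Negative libraries. Both Negative libraries were below all 8 others, which lay within a single log2 unit. Fbn1 was higher than in Negative cells by 1.18 ± 0.25 in Wnt2 (adjusted p = 0.0133), 1.66 ± 0.25 in Axin2:Pdgfra (0.00135) and 1.04 ± 0.25 in Pdgfra cells (0.0409), and the difference of 1.08 ± 0.25 in Axin2 cells did not pass (limma, adjusted p = 0.0717). The Axin2:Pdgfra call held without any 1 library. The Wnt2 call ended without Wnt2 library 1 (adjusted p = 0.23) or Negative library 2 (0.0541), and the Pdgfra call held only without one of the Wnt2 libraries (adjusted p up to 0.224 in the others). In the mouse annotation 20.14% of the exonic bases of Fbn1 lie opposite Gm9913, a gene on the other strand that was at 5.53 or less in every library. Reads of the pair cannot be told apart if counting did not use strand. The same holds for 4.63% of the exonic bases of Mfap4, opposite Mapk7, which reached 12.54. It also holds for 3.3% of those of Eln, opposite Gm30003, which was not among the genes measured.

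The EMILINs sit at the interface between elastin and microfibrils. Emilin1 was at 11.45 and 11.31 in Wnt2, 12.5 and 13.06 in Axin2:Pdgfra, 10.93 and 11.15 in Axin2, 10.88 and 12.07 in Pdgfra and 8.91 and 9.24 in Negative libraries. Axin2:Pdgfra was above every other library and Negative below every other. Against Negative cells Emilin1 was higher by 3.7 ± 0.54 in Axin2:Pdgfra (limma, adjusted p = 0.00105; 13-fold; held without any 1 library), 2.31 ± 0.54 in Wnt2 (0.0222) and 2.4 ± 0.54 in Pdgfra cells (0.03). The Wnt2 call ended without Wnt2 library 1 (0.209) or Wnt2 library 2 (0.143). The Pdgfra call ended without Pdgfra library 1 (0.0506), Pdgfra library 2 (0.214), Wnt2 library 1 (0.061), Wnt2 library 2 (0.0602) or Negative library 0 (0.0551).

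Emilin2, a relative of Emilin1, lay low on the scale and varied most. It was at 7.85 and 3.85 in Wnt2, 9.3 and 10.9 in Axin2:Pdgfra, 2.64 and 1.75 in Axin2, 7.18 and 7.53 in Pdgfra and 6.24 and 6.33 in Negative libraries. In Axin2 library 2 Emilin2 was listed at the lowest value of that library, and no other of the 10 genes was so listed in any library. Axin2:Pdgfra was above and Axin2 below every other library. The difference of Axin2:Pdgfra from Axin2 cells was 7.9 ± 1.72 (limma, adjusted p = 0.0284) and became 4.1 (adjusted p = 0.0443) with all values below 6 set to 6, so its size depends on the lowest values. The call ended without either Axin2:Pdgfra library (adjusted p = 0.067 and 0.191), either Axin2 library (0.0978 and 0.184) or either Pdgfra library (0.05 each).

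Fibulins are secreted glycoproteins with calcium-binding EGF repeats. Fibulin 1 is found in elastic fibres and basement membranes, fibulin 2 in basement membranes and vessel walls, and fibulin 5 binds elastin and is needed for elastic fibre assembly in mice. Fbln1 had the smallest adjusted p of the 10 genes in the test across lineages and Fbln5 the largest, so the bases before their starts are set side by side. The windows hold the 250 bases before the first start that RefSeq lists (GRCm38.p6), 5′ to 3′ along the gene, in lower case with matches to GGGCGG on either strand in capitals. Fbln1 lies at chr15:85205699-85205948 on the + strand and Fbln5 at chr12:101819120-101819369 on the - strand.
Fbln1: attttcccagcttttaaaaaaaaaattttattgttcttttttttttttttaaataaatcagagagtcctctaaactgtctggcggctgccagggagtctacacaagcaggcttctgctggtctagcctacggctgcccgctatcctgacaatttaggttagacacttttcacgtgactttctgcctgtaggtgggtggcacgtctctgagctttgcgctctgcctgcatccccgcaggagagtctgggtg
Fbln5: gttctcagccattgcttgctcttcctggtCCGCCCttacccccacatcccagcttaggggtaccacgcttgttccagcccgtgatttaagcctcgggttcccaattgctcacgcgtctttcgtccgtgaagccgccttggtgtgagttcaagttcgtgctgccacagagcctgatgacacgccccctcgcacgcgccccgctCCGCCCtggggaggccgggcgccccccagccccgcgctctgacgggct
The Fbln1 window had a GC content of 46.4% with 7 CpG dinucleotides, and the Fbln5 window 65.2% with 21, beside medians of 52.4% and 6 over all 32851 windows. Before the second start listed for each gene the order was reversed, with 62.4% and 14 for Fbln1 and 49.6% and 6 for Fbln5. The second Fbln1 window, at chr15:85205758-85206007, shares most of its bases with the first, so the 2 are not separate regions. The second Fbln5 window, at chr12:101818485-101818734, does not overlap the first. GGGCGG was found at 2 places in the Fbln5 window shown and at none in the Fbln1 window shown. Before the second start GGGCGG was found at 1 place for Fbln1 and at 0 for Fbln5. It occurs in 32.7% of all windows. Neither window shown held TATAAA (12.4% of all windows), GGAATG (12.6%), CTTTGAT (3.2%), TGANTCA (6.7%) or a CArG box (1.5%) on either strand. Windows were listed for 7 of the 10 genes.

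Fbln1 stood at 11.17 and 10.88 in Wnt2, 14.52 and 14.45 in Axin2:Pdgfra, 12.32 and 12.39 in Axin2, 13.19 and 13.46 in Pdgfra and 10.43 and 10.62 in Negative libraries. No 2 groups overlapped. Axin2:Pdgfra cells had more Fbln1 than Axin2 cells, by 2.13 ± 0.36 (limma, adjusted p = 0.00654; 4.38-fold) and more than Negative cells, by 3.96 ± 0.36 (9.22e-05; 15.5-fold). It was higher in Pdgfra than in Negative cells by 2.8 ± 0.36 (0.00107; 6.96-fold) and in Axin2 than in Negative cells by 1.83 ± 0.36 (0.0437). In Wnt2 cells it was lower than in Axin2:Pdgfra cells by 3.46 (difference -3.46 ± 0.36, adjusted p = 0.000418) and than in Pdgfra cells (-2.3 ± 0.36, 0.014). Between Axin2:Pdgfra and Pdgfra cells the difference of 1.16 ± 0.36 did not pass (adjusted p = 0.221). The calls of Axin2:Pdgfra and Pdgfra against Negative cells and of Wnt2 against Axin2:Pdgfra cells held without any 1 library. Axin2:Pdgfra against Axin2 ended without Axin2 library 1 (0.0607) or Axin2 library 2 (0.0835), and Wnt2 against Pdgfra without either library of either group (0.066 to 0.161). The call of Axin2 against Negative cells held only without Negative library 0, and its adjusted p reached 0.277 without Axin2 library 2.

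Fbln2 was at 8.03 and 7.28 in Wnt2, 11.05 and 10.26 in Axin2:Pdgfra, 3.62 and 8.41 in Axin2, 10.9 and 11.84 in Pdgfra and 7.11 and 10.28 in Negative libraries. The 2 libraries of Axin2 and of Negative cells stood far apart (SD 3.38 and 2.25), and no pair of lineages passed (limma, adjusted p = 0.0683 or more). Its largest difference, of Axin2 from Pdgfra cells, was -5.35 ± 1.42 (95% interval -8.39 to -2.31).

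Fbln5 was at 12.6 and 12.38 in Wnt2, 12.04 and 12.02 in Axin2:Pdgfra, 12.23 and 11.26 in Axin2, 11.53 and 12.29 in Pdgfra and 13.42 and 10.73 in Negative libraries. Negative libraries held both its highest and its lowest value, and all lineages overlapped Negative cells. No pair of lineages passed. The difference of Wnt2 from Axin2 cells was the widest, at 0.75 ± 0.67 (limma, adjusted p = 0.619; 95% interval -0.69 to 2.19).

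Mfap2 and Mfap5 encode small related glycoproteins that bind fibrillin, whereas Mfap4 encodes an unrelated fibrinogen-like protein that binds elastin and collagen. Mfap4 was at 17.32 in both Wnt2 libraries, 16.85 and 16.45 in Axin2:Pdgfra, 15.8 and 16.17 in Axin2, 15.38 and 16.32 in Pdgfra and 15.1 and 15.52 in Negative libraries. Both Wnt2 libraries were above all 8 others. It ranked between 6 and 74 among all genes in each library, where the near-identical distributions let rank set the value (rank 6 in both Wnt2 libraries), so its spread is partly set by the scale. Mfap4 was higher in Wnt2 than in Axin2 cells by 1.33 ± 0.27 (limma, adjusted p = 0.0125), than in Pdgfra cells by 1.47 ± 0.27 (0.0354) and than in Negative cells by 2.01 ± 0.27 (0.00076; 4.02-fold). The difference of 0.67 ± 0.27 from Axin2:Pdgfra cells did not pass (0.303). Axin2:Pdgfra cells were above Negative cells by 1.34 ± 0.27 (0.0083). The call of Wnt2 against Negative cells held without any 1 library, that against Axin2 ended without either library of either group (0.0663 to 0.123), and that against Pdgfra held only without Pdgfra library 2 or one of the Negative libraries (adjusted p up to 0.509 elsewhere). The call of Axin2:Pdgfra against Negative cells ended without Axin2:Pdgfra library 1 (0.0854).

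Mfap2 ran the other way. It was at 7.08 and 7.11 in Wnt2, 9.58 and 9.09 in Axin2:Pdgfra, 9.94 and 9.9 in Axin2, 10.46 and 9.42 in Pdgfra and 9.96 and 10.23 in Negative libraries. Both Wnt2 libraries were below all 8 others, which overlapped in part. Mfap2 was lower in Wnt2 than in Negative cells (-3 ± 0.82, limma, adjusted p = 0.0454; 8-fold). The differences of Wnt2 from Axin2:Pdgfra (-2.24), Axin2 (-2.83) and Pdgfra cells (-2.84, each ± 0.82) did not pass (adjusted p = 0.253, 0.0695 and 0.239). The call against Negative cells held only without one of the Axin2:Pdgfra libraries and reached an adjusted p of 0.252 without Wnt2 library 1.

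Mfap5 followed Fbln1 rather than Mfap2. It was at 10.61 and 9.69 in Wnt2, 13.71 in both Axin2:Pdgfra, 11.7 and 10.88 in Axin2, 12.2 and 12.54 in Pdgfra and 10.12 and 10.45 in Negative libraries. In falling order Axin2:Pdgfra, Pdgfra and Axin2 libraries did not overlap, and Wnt2 and Negative cells overlapped below them. Axin2:Pdgfra cells exceeded Axin2 cells by 2.42 ± 0.49 (limma, adjusted p = 0.02; 5.37-fold) and Negative cells by 3.43 ± 0.49 (0.000935; held without any 1 library), and Pdgfra cells exceeded Negative cells by 2.09 ± 0.49 (0.0369). In Wnt2 cells it was lower than in Axin2:Pdgfra cells (-3.56 ± 0.49, 0.00345; 11.8-fold), a call that ended without Wnt2 library 2 (0.0687). Axin2:Pdgfra against Axin2 ended without either library of either group (0.0548 to 0.209). Pdgfra against Negative ended without Wnt2 library 1 (0.054), Pdgfra library 1 (0.153), Pdgfra library 2 (0.198), Negative library 0 (0.0748) or Negative library 2 (0.0598).

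**Figure D3:**
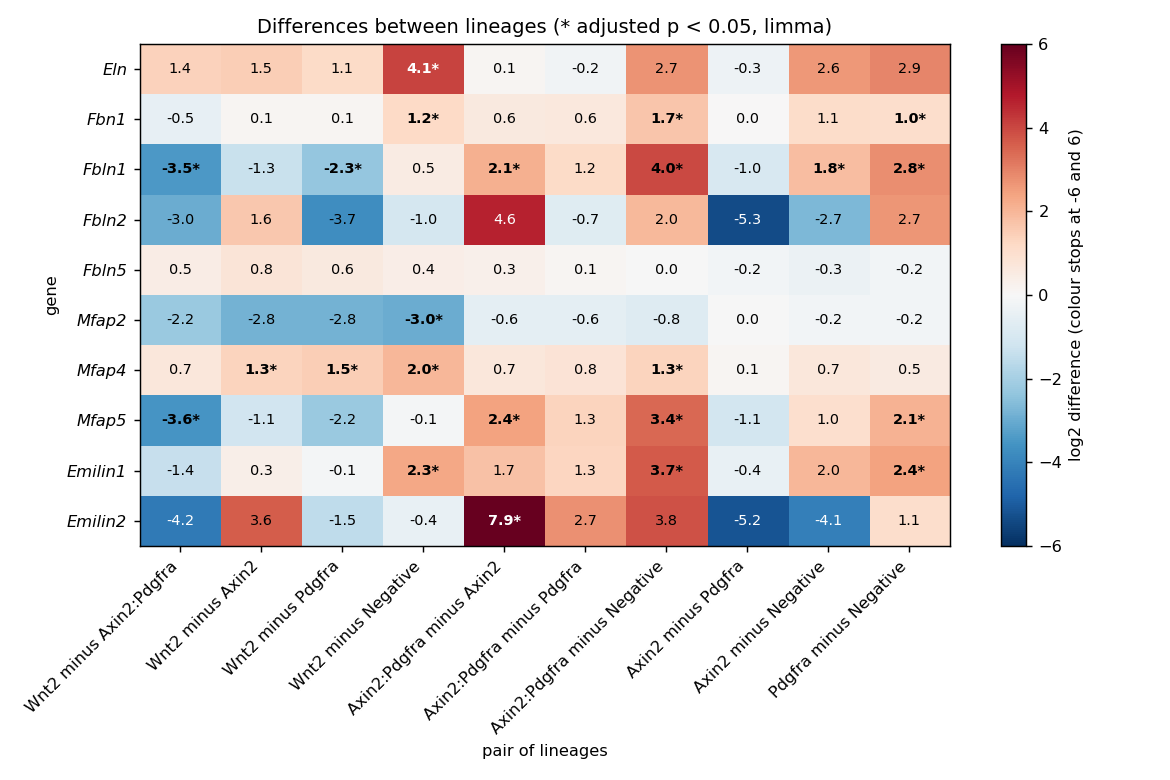
Log2 difference (number and colour) of each gene (y axis) for each pair of lineages (x axis), first group minus second, with an asterisk where the adjusted p is under 0.05 (limma). Of 100 cells 23 are marked, 19 of them positive, beside 2.57% over all genes; Axin2:Pdgfra minus Pdgfra and Axin2 minus Pdgfra have none.

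The Pdgfra label was examined within a single mouse line, as the mean of Axin2:Pdgfra and Pdgfra minus the mean of Axin2 and Negative cells, 4 libraries against 4. 6 genes rose with the label and none fell: Fbln1 by 2.47 ± 0.26 (limma, adjusted p = 6.29e-05; 5.52-fold), Mfap5 by 2.26 ± 0.35 (0.00141; 4.78-fold), Emilin1 by 2.07 ± 0.38 (0.0046; 4.2-fold), Fbn1 by 0.81 ± 0.18 (0.0131; 1.76-fold), Fbln2 by 3.66 ± 1 (0.0433) and Emilin2 by 4.49 ± 1.21 (0.0406). That is 6 of 10, beside 3.55% of all genes that rose. The median difference was 1.79 over the 10 genes and 0 over all genes tested. All 4 libraries with the label were above all 4 without it for 3 of the 10 genes, Fbln1, Mfap5 and Emilin2, as for 4.9% of all genes. Eln (1.5 ± 0.63, adjusted p = 0.192), Mfap4 (0.6 ± 0.19, 0.0817), Fbln5 (0.06 ± 0.48, 0.966; 95% interval -0.96 to 1.08) and Mfap2 (-0.37 ± 0.58, 0.773; -1.61 to 0.86) did not pass.

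The calls of Fbln1, Mfap5 and Emilin1 held without any 1 library. That of Fbn1 ended without Axin2:Pdgfra library 2 (0.063), Axin2 library 2 (0.0645) or Pdgfra library 2 (0.0709). That of Fbln2 held only without Axin2 library 2 or Negative library 2 (0.057 to 0.158 elsewhere), and that of Emilin2 only without Wnt2 library 2 (0.0518 to 0.127 elsewhere). Without Axin2:Pdgfra library 2 or Pdgfra library 2 the count of 6 was 3. With values below 6 set to 6 the difference of Emilin2 was 2.58 (adjusted p = 0.0404). Of the 13 fibroblast markers 12 also rose with the label, among them Pdgfra, whose EGFP reporter defines the label. Of the 17 pericyte and smooth muscle markers 11 fell. The summed levels of both lists are given above. Of the other lists 6 of 13 epithelial, 2 of 12 endothelial and 1 of 5 erythroid markers fell. Of 6 mesothelial markers 4 fell (Krt19, Gpm6a, Upk3b and Lrrn4) and 1 rose (Upk1b), of 5 Schwann cell markers 1 rose and 1 fell, and 0 of 9 immune markers passed (limma; 1 at an unadjusted p under 0.05); their part in these differences was not tested.

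The label could also be followed in 2 comparisons that share no library. Among Axin2 cells, Axin2:Pdgfra against Axin2, 3 of 10 genes rose (Fbln1, Mfap5 and Emilin2; 0.924% of all genes). Among cells without the Axin2 label, Pdgfra against Negative, 4 rose (Fbn1, Fbln1, Mfap5 and Emilin1; 2.03% of all genes). Fbln1 and Mfap5 rose in both, and the share of all genes that did so was not computed. Both comparisons use 1 estimate of spread from all 10 libraries, so they are not independent tests. The count of 3 was 1 without either Axin2:Pdgfra library and 0 without either Axin2 library, and the count of 4 was 1 without either Pdgfra library or Negative library 0, and 2 without Wnt2 library 1 or Negative library 2. Fbn1 differed by 0.59 ± 0.25 and 1.04 ± 0.25 and Emilin1 by 1.74 ± 0.54 and 2.4 ± 0.54 in these 2 comparisons. Eln differed by 0.1 ± 0.89 and 2.91 ± 0.89 and Emilin2 by 7.9 ± 1.72 and 1.07 ± 1.72, the widest gaps between the pair. The difference between them, the interaction of the labels, passed for 0 of 10 genes and for 0% of all genes (limma; 2 of 10 and 1296 of all genes at an unadjusted p under 0.05). These 2 genes were Eln (-2.81 ± 1.26, adjusted p = 0.526) and Emilin2 (6.84 ± 2.43, adjusted p = 0.44).

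**Figure D4:**
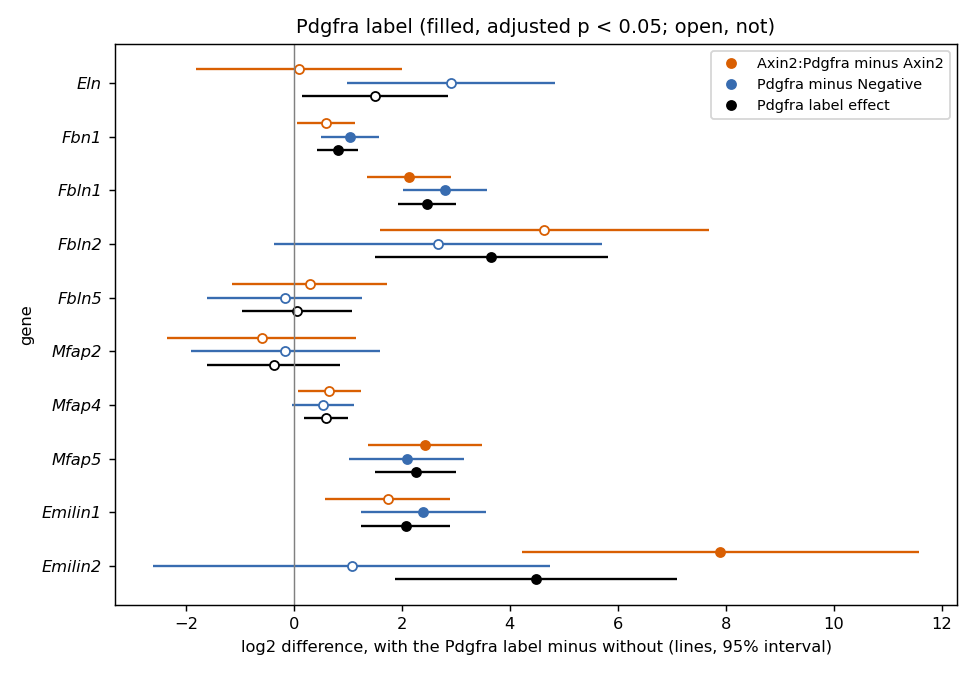
Log2 difference (x axis) with the Pdgfra label minus without, for each gene (y axis), among Axin2 cells (orange), among cells without the Axin2 label (blue) and over both (black); lines are 95% intervals and filled points have an adjusted p under 0.05 (limma). 6 black points are filled, those of Fbn1, Fbln1, Fbln2, Mfap5, Emilin1 and Emilin2, and the points of Fbln5 and Mfap2 lie close to 0.

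The Axin2 label was examined in the same line, as the mean of Axin2:Pdgfra and Axin2 minus the mean of Pdgfra and Negative cells. Fbln1 rose by 1.49 ± 0.26 (limma, adjusted p = 0.0152), Emilin1 by 1.63 ± 0.38 (0.0473) and Fbn1 by 0.85 ± 0.18 (0.0303). These are 3 of 10 genes, beside 0.501% of all genes that rose, and none of the 10 fell. The call of Fbln1 ended without Axin2 library 2 (0.0816) or Pdgfra library 1 (0.12). That of Fbn1 held only without one of the Wnt2 libraries or Negative library 0 (adjusted p up to 0.18 elsewhere), and that of Emilin1 only without Negative library 0 (up to 0.216 elsewhere). The count of 3 was 0 without Axin2 library 2 or Pdgfra library 1, and 1 without either Axin2:Pdgfra library, Axin2 library 1 or Negative library 2. The median over the 10 genes was 0.79, and 0.07 over all genes. Neither pair of lineages alone gave more than a single call. Axin2 against Negative cells gave Fbln1 (0.24% of all genes rose). Axin2:Pdgfra against Pdgfra cells gave 0 of 10 (0.0423% of all genes called), with 5 of 10 and 1801 of all 14177 genes at an unadjusted p under 0.05 (limma). Axin2:Pdgfra against Negative cells, which differ in both labels, gave 5 of 10 (Fbn1, Fbln1, Mfap4, Mfap5 and Emilin1, all higher), beside 3.33% of all genes that rose. Axin2 against Pdgfra cells gave 0 of 10 (2.26% of all genes called), with 4 of 10 and 2332 of all 14177 genes at an unadjusted p under 0.05 (limma). Of the 13 epithelial markers 7 fell with the Axin2 label, as did 3 of 5 erythroid and 4 of 12 endothelial markers. The share of all genes that fell with this label is not given here. Of the 13 fibroblast markers 3 rose, and of the 17 pericyte and smooth muscle markers 1 rose. The part of all these markers in the differences was not tested.

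Wnt2 cells differed from the mean of the other 4 groups in 4 of 10 genes, beside 2.16% of all genes. Mfap4 was higher by 1.37 ± 0.21 (limma, adjusted p = 0.00374; 2.58-fold), and Fbln1 (-1.65 ± 0.29, 0.00784), Mfap5 (-1.76 ± 0.39, 0.0289) and Mfap2 (-2.73 ± 0.65, 0.0424; 6.62-fold) were lower. All 4 calls ended without Wnt2 library 1 (adjusted p = 0.0609 for Mfap4, 0.0935 for Fbln1, 0.119 for Mfap5 and 0.452 for Mfap2) and without Wnt2 library 2 (0.0609, 0.19, 0.558 and 0.366 in the same order). The call of Mfap5 held only without Axin2 library 2 or one of the Negative libraries, and that of Mfap2 only without Axin2:Pdgfra library 2 or one of the Negative libraries. The count of 4 was thus 0 without either Wnt2 library, and 2 without Axin2:Pdgfra library 1, Axin2 library 1 or either Pdgfra library. Against single lineages, 5 genes passed against Negative cells (4 higher and 1 lower, beside 5.81% of all genes in either direction). Against Pdgfra cells 2 passed (Mfap4 higher and Fbln1 lower, beside 0.367% in either direction). Against Axin2:Pdgfra cells 2 passed (both lower, beside 0.522% of all genes that were lower). Against Axin2 cells 1 passed (Mfap4 higher, beside 1.8% that were higher). The last 2 shares count 1 direction only. All 12 calls in the pericyte and smooth muscle list of 17 were lower in Wnt2 cells, as were 4 of 13 epithelial, 1 of 12 endothelial and 1 of 6 mesothelial markers, while 2 fibroblast markers were higher and 3 lower; their part in these differences was not tested.

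The members also differed in how they moved together over the 10 libraries, which share lineages and so are not independent points. Of 45 pairs of genes 7 had a Pearson correlation of at least 0.7 and 10 were negative. The share over pairs of all genes was not computed, so these counts do not set the 10 genes apart from others. Fbln1 and Mfap5 were the closest pair (r = 0.966), followed by Fbn1 and Emilin1 (0.943), Fbln1 and Emilin1 (0.819) and Eln and Mfap4 (0.788). Mfap2 and Mfap4 were the most opposed (-0.863), and Mfap2 and Eln next (-0.591). Among all genes tested, the closest in pattern to Fbln1 were Slurp1 (0.967), Mfap5 and Cpz (0.964), and to Mfap5 Slurp1 (0.986), Pamr1 (0.967) and Fbln1. Serping1, the inhibitor of complement C1, was closest to Emilin1 (0.982) and among the 3 closest to Fbn1 (0.942). For Eln the closest were Sytl2 (0.944), Ift81 (0.919) and Rnf135 (0.917), for Mfap4 Ppp1r2 (0.948), Gria1 (0.946) and Ogn (0.939), and for Mfap2 Fstl3 (0.963), Mapk12 (0.947) and Ly6e (0.942). Fbln5 was closest to Pard3 (0.971), Fbln2 to Cd55 (0.898) and Emilin2 to Zmynd15 (0.895). Each nearest gene was picked as the highest among all genes tested over 10 libraries, which alone gives a high r. Fbln5, which did not pass the F-test among lineages, reached 0.971, beside 0.967 for Fbln1.

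**Figure D5:**
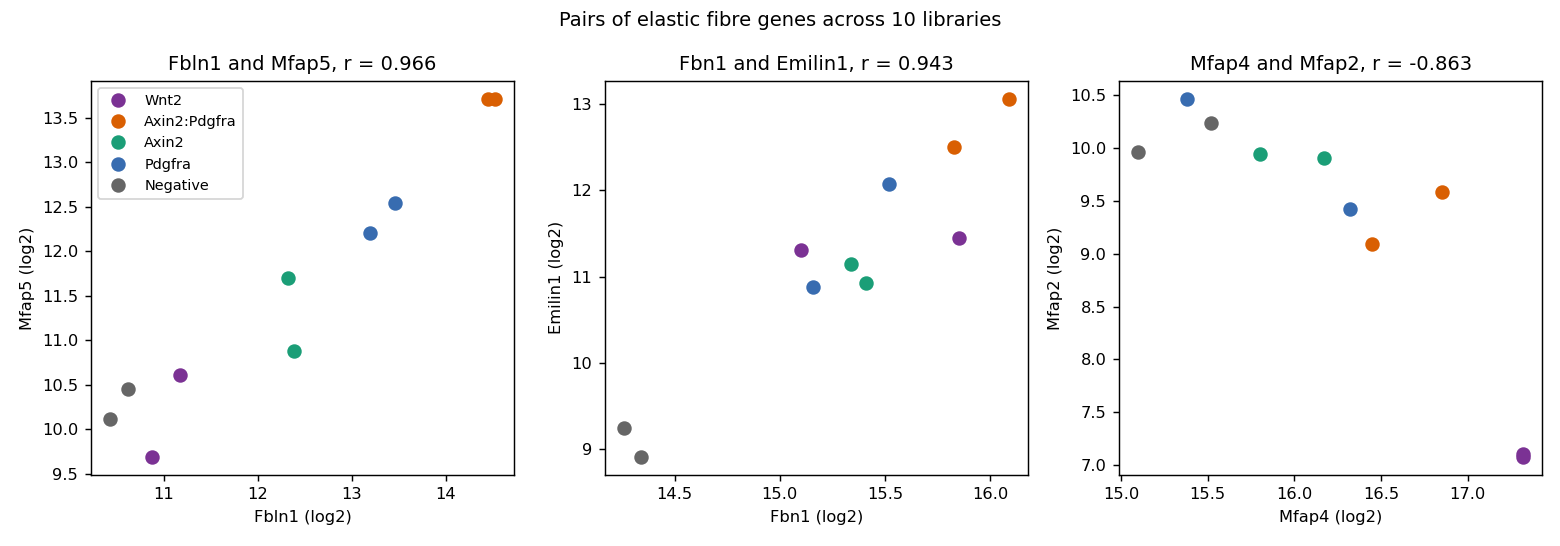
The 3 panels are pairs of elastic fibre genes, 1 gene on each axis (log2), with a point for each of the 10 libraries coloured by lineage. Fbln1 and Mfap5 rise together with both Axin2:Pdgfra libraries at the top (r = 0.966), as do Fbn1 and Emilin1 with both Negative libraries at the bottom (0.943), and Mfap2 falls as Mfap4 rises with both Wnt2 libraries at the far end (-0.863).

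Of 42 other genes of elastic fibre assembly and turnover, 39 were in the tables and 38 passed the filter. With the Pdgfra label 14 of these rose and 5 fell (limma; 3.55% and 2.93% of all genes), with a median difference of 0.55 against 0 over all genes. Among the other fibulins 4 of 5 rose: Hmcn2, a hemicentin, by 4.91 ± 1.28 (adjusted p = 0.0342), Fbln7 by 4.4 ± 1.19 (0.0406), Efemp1, fibulin 3, by 1.74 ± 0.24 (0.000547) and Hmcn1 by 1.37 ± 0.3 (0.0129). Some values of Fbln7 and Hmcn2 were the lowest of their library, for Fbln7 those in Negative libraries 0 and 2 and Wnt2 library 2, and for Hmcn2 those in Negative library 2 and Wnt2 library 1, and their differences depend on it. Efemp2, fibulin 4, was at 11.21 ± 0.07 in Axin2:Pdgfra, 9.75 ± 0.12 in Pdgfra, 12.11 ± 1.08 in Axin2 and 10.48 ± 0.9 in Negative cells (mean ± SD, n = 2) and did not pass. Of the 5 lysyl oxidases, which cross-link elastin and collagen, Lox rose by 2.09 ± 0.3 (0.000857) and Loxl1 by 1.86 ± 0.35 (0.00569). Among the proteoglycans Vcan rose by 3.45 ± 0.54 (0.00153) and Dcn, also one of the fibroblast markers, by 3.2 ± 0.38 (0.000177), and Hspg2, perlecan of basement membranes, fell by 1.57 (-1.57 ± 0.22, 0.000655).

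Microfibril-associated proteases and their relatives were divided. Of the 8 ADAMTS and ADAMTSL genes, Adamtsl2 rose by 2.74 ± 0.48 (limma, adjusted p = 0.00335), Adamts17 by 2.73 ± 0.54 (0.00666) and Adamts10 by 1.08 ± 0.28 (0.0321) with the Pdgfra label, while Adamtsl3 (-4.55 ± 0.64, 0.000655) and Thsd4 (-4.5 ± 0.91, 0.00786) fell. Of the 5 fibrillin and latent TGF-beta binding proteins Ltbp1 rose by 1.48 ± 0.21 (0.000793) and Ltbp4 by 0.87 ± 0.16 (0.0055), and Ltbp2 fell (-3.09 ± 0.32, 5.49e-05). Emid1, a protein with an EMILIN-like domain, fell by 5.46 (-5.46 ± 0.68, 0.00028), opposite in direction to Emilin1 and Emilin2. Of the 5 elastin-degrading enzymes tested only Mmp2 passed, and it rose (1.97 ± 0.26, limma, adjusted p = 0.000528). At an unadjusted p under 0.05 (limma), in either direction, were 4 of these 5 and 2896 of all 14177 genes. Of 4 elastase inhibitors 0 passed in either direction (limma, with 1 at an unadjusted p under 0.05). Ltbp2 was at 12.42 and 12.51 in Axin2:Pdgfra and 11.42 and 12.22 in Pdgfra, against 15.47 and 16.39 in Axin2 and 15.02 and 14.03 in Negative libraries, without overlap. Pdgfrb, from the list of pericyte and smooth muscle markers, had the same order, at 12.61, 12.67, 12.59 and 12.53 with the label and 16.32, 16.94, 15.49 and 15.02 without it. Not all of that list of 17 had this order: 11 fell with the label and 0 rose. Kcnj8 and Abcc9 had their highest means in Axin2:Pdgfra cells (12.39 and 12.57, against 11.25 and 12.25 in Axin2 cells). In Wnt2 cells against the mean of the other 4 groups, Efemp1 and Lox were higher and Ltbp2, Dcn, Hspg2 and Loxl2 lower, 6 of 38 genes beside 2.16% of all genes. Without Wnt2 library 1 only Dcn, Hspg2 and Ltbp2 passed (3 of 38), without Wnt2 library 2 only Dcn and Ltbp2 (2 of 38), and without Negative library 2 the count was 13.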

How the data were processed

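The authors deposited log2 values, 1 per Ensembl gene and library, normalized to near-identical distributions before deposit; the log2 scale was inferred from their range. STAR, limma and the mouse build mm9 are named, per the submitters' processing notes. Versions, annotation and counter: not given in the sources used here. All 10 tables share the highest value and have medians of 9.1 to 9.11, as quantile normalization leaves them, so a value near the top of the scale follows its rank. Symbols were matched to 14720 of 14854 identifiers.

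Groups and replicate numbers came from the labels. Genes at log2 6 or more in at least 2 libraries were kept (14177). limma 3.58.1 in R 4.3.3 was fitted to all 10 libraries with 1 mean per group (eBayes with trend and robust, 5 residual degrees of freedom, two-sided, BH adjustment over all genes kept, threshold 0.05), after a check on simulated data. All 10 genes are described; of the other elastic fibre genes, those with the largest differences past the threshold with the Pdgfra label are named, up to 6 in each direction, beside those a sentence on a list turns on, and the 3 nearest genes by Pearson correlation were computed for each of the 10. The 10 genes and the lists were chosen with earlier results of these data known. Upstream sequences were taken from RefSeq (GRCm38.p6). The alternatives tried are given at the end.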

Additional observations from a re-analysis of the deposited data

How the results depend on the processing

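The number of the 10 genes past the threshold depended on the processing. With the Pdgfra label 186 of 190 recomputed differences kept their sign, and the other 4 were all of Fbln5, whose 0.06 became -0.55 with the share at the lowest value as a covariate, -0.18 without Axin2 library 2, -0.13 without Pdgfra library 2 and -0.61 without Negative library 2, in a range of -0.61 to 0.73 over libraries left out. Some of these signs were fixed in advance. A changed filter, eBayes without trend or robust, and the absence of Wnt2 libraries leave each of these differences as it was. No count moved by over 1.5 times with no filter, a filter at log2 8, values below 6 set to 6, or libraries shifted to 1 mean.

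Fitting eBayes without trend or robust left 1 gene differing among lineages (5 in the fit reported), 4 of the 23 pair calls, 2 genes with the Pdgfra label (6), 0 with the Axin2 label (3), 0 for Axin2:Pdgfra against Axin2 (3), 0 for Pdgfra against Negative (4), 0 for Axin2 against Negative (1), 0 for Wnt2 against the others (4) and 5 other elastic fibre genes (19). Array weights left 3 genes with the Pdgfra label, 1 with the Axin2 label, 1 for Pdgfra against Negative and 0 for Axin2 against Negative. With the share at the lowest value as a covariate, 10 pair calls were left, with 1 for Pdgfra against Negative, 0 for Axin2 against Negative and 0 for Wnt2 against the others. Without the Wnt2 group Axin2 against Negative had 0, and the F-test of Mfap4 over 4 lineages an adjusted p of 0.0541 (limma). The cause was not tested.

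The replicate numbers did not pair the libraries (r of deviations from -0.0606 to 0.0279 over 6 pairs of groups). The replicate block, in which Negative library 0 has a number of its own and does not bear on the differences, left 1 gene for Pdgfra against Negative and 0 for Axin2 against Negative.

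With 1 library left out, the lone library of its group is assumed to vary like the others. The counts then ranged from 13 to 21 for pair calls, 3 to 5 for the Pdgfra label, 0 to 3 for the Axin2 label, 0 to 3 for Axin2:Pdgfra against Axin2, 1 to 3 for Pdgfra against Negative, 0 to 1 for Axin2 against Negative and 0 to 4 for Wnt2 against the others. Of the other elastic fibre genes, 6 passed for Wnt2 against the others, against 2 with eBayes without trend or robust, 3 with the covariate and 15 with array weights. Depth is unknown, so the values near the lowest of a library, as for Emilin2, have no stated precision.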
